A study of Mus musculus with 6 samples.

Results

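The 10 genes described here handle fatty acids and stored fat, and were followed in bone marrow-derived macrophages with and without oxidised low-density lipoprotein (oxLDL). They are the nuclear receptor gene Pparg, the fatty acid-binding genes Fabp3, Fabp4 and Fabp5, the lipid droplet genes Plin2 and Hilpda, and the lipase genes or lipase regulators Angptl4, Lpl, Pnpla2 and Mgll. The members were taken by gene symbol, all 10 were found among the 24054 genes listed, and all 10 passed the filter on low counts that left 12689 genes for testing. Polyadenylated RNA was sequenced in 6 libraries. They were 2 of Kindlin3-integrin mutant macrophages given 50 µg/ml oxLDL for 24 hours, 2 of mutant macrophages left untreated, 1 of wild-type C57BL/6 macrophages given the same oxLDL, and 1 of wild-type macrophages left untreated. The mutant mice are also on the C57BL/6 background, and the labels give no age for the animals. Bone marrow had first been cultured for 7 days with L929-conditioned medium, the usual source of macrophage colony-stimulating factor. Kindlin-3 is the kindlin of blood cells, which binds integrin tails and helps to activate integrins. The sample titles mark the mutant libraries with KI, which is not spelled out, and the labels do not name the mutation. They also leave the origin of replicates 1 and 2 (animal or culture) unstated. The p-values therefore cover the spread of these libraries, which may be technical.

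PPAR gamma, the product of Pparg, is a receptor in the nucleus that fatty acids and some oxidised lipids can switch on, and it acts as a pair with a retinoid X receptor. In macrophages and fat cells it raises genes that take up, carry and store fatty acids. Fatty acid-binding proteins carry fatty acids through the cytosol, perilipin 2 (Plin2) coats the lipid droplets that fill foam cells, and lipases cut the stored or circulating fat free again. Macrophages that take up oxLDL fill with lipid and become the foam cells of atherosclerotic plaques.

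Promoter sequence from RefSeq (build GRCm38.p6) is shown for the receptor gene, both droplet genes and Mgll, since PPAR gamma and the hypoxia-inducible factors are textbook regulators of several of them. The table held 10 windows for 6 of the 10 genes, each from 250 bases before to 50 after an annotated start. Fabp4, Fabp5, Angptl4 and Lpl had no entry. The build behind the counts is uncertain, so these positions are RefSeq's and not the authors'. Capitals mark AGGTCA, the hexamer of which nuclear receptor sites are built, and ACGTG, a form of the core of hypoxia-inducible factor sites, each on either strand. Other forms of that core, such as GCGTG, were neither marked nor counted. Each sequence is written 5′ to 3′ along the strand of its gene. Every window shown holds a marked match. The windows of Fabp3 and Pnpla2, the other Hilpda window and the Pparg window that starts at 115421816 hold none and are not shown.
Pparg, chr6:115362099-115362398, plus strand: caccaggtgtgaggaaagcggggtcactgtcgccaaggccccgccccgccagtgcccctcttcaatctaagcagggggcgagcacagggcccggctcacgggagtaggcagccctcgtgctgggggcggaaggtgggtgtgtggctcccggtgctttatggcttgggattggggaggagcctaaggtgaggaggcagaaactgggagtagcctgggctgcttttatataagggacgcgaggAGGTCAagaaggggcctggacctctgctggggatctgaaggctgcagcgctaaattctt
Plin2, chr4:86670010-86670309, minus strand: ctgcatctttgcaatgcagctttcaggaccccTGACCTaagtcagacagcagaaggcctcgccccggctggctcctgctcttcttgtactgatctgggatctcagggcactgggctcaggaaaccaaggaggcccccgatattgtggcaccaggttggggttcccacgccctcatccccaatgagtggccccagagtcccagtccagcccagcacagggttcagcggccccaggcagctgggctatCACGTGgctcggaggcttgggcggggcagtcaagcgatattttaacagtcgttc
Hilpda, chr6:29272376-29272675, plus strand: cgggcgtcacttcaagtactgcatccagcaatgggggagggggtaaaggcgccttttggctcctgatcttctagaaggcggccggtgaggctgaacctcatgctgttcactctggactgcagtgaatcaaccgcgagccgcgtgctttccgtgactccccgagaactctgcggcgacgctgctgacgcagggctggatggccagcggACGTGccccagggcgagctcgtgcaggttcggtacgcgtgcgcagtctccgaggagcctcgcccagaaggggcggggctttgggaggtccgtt
Mgll, chr6:88724162-88724461, plus strand: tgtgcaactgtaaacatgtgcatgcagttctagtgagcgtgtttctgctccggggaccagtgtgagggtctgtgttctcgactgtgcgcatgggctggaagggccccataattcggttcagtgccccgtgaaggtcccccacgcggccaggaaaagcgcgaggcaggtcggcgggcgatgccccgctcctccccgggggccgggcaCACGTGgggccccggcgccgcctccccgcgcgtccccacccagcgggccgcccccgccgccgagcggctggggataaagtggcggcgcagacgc
The PPAR element was searched as an exact string, 2 copies of AGGTCA in the same direction with 1 base between them. It was in none of the 10 windows on either strand and in 0.0396% of 32851 promoter windows of the same length. At that rate 10 windows would mostly hold no match, and sites with other letters or outside the windows were not searched. AGGTCA alone was in 3 of the 10 windows, of 2 genes (Plin2 and Pparg), and in 16.3% of all windows. ACGTG was in 4 of the 10, of 3 genes (Plin2, Hilpda and Mgll), and in 19.6% of all windows. In Plin2 and in the Mgll window shown it forms the palindrome CACGTG, so the same letters match on both strands. In the Mgll window not shown it does not form that palindrome. These matches describe letters only, and no binding was measured here.

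Libraries held between 11281692 and 24273551 counts. Levels are in CPM, counts scaled to a common library size with TMM factors, and the floor of detection, set at 3 counts, equals 0.122 to 0.265 CPM. Of 11 macrophage markers all were detected, with a summed level of 21961 and 16754 CPM in oxLDL-treated mutant, 33284 and 26142 CPM in mutant untreated, 12451 CPM in wild type oxLDL and 21679 CPM in wild type untreated cells. Lyz2 was the most abundant of them, and with oxLDL 5 of the 11 fell and 2 (Cd68 and Mertk) rose. Fcgr1 fell 9.63-fold, Emr1, which encodes F4/80, 5.48-fold, Cd14 5.10-fold and Csf1r 2.30-fold. Several of the 10 genes also mark fat cells or capillary endothelium. Of 13 adipocyte markers 12 were under 1 CPM in every library, and Plin1, Cidea, Cfd, Lep and Retn had no count at all. Their sum was 11.5 and 13.5 CPM in oxLDL-treated mutant, 26.6 and 30.4 CPM in mutant untreated, 13.5 CPM in wild type oxLDL and 47.2 CPM in wild type untreated cells, and Lipe, the hormone-sensitive lipase gene, made up nearly all of it. The 10 endothelial markers did not move together. Of the 7 tested, 2 rose with oxLDL (Vwf and Kdr) and 3 fell (Pecam1 18.5-fold, Cdh5 7.93-fold and Flt1 2.41-fold), with a median log2 fold change of -0.33. Their sum, carried mostly by Vwf and Kdr in the oxLDL libraries, was 332 and 287 CPM in oxLDL-treated mutant, 110 and 85.8 CPM in mutant untreated, 143 CPM in wild type oxLDL and 68.9 CPM in wild type untreated cells. Cdh5 stayed at or under 0.637 CPM, and Gpihbp1 and Emcn had no count in any library. Fibroblast markers summed to at most 3.26 CPM. Neutrophil markers summed to 45.2 CPM in wild type untreated cells and to at most 7.36 CPM in the other libraries. Transcripts of the pancreas, 21 genes of digestive enzymes and islet hormones, summed to 204 and 163 CPM in the treated mutant pair and 275 CPM in the untreated wild-type library, against at most 3.47 CPM in the other 3 libraries. The part of these marker differences in the results was not tested, and fewer cells of a type cannot be told apart from less RNA per cell in such bulk samples.

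The main question was how oxLDL changed these genes, asked over 3 oxLDL and 3 untreated libraries with genotype as a term. With oxLDL 8 of the 10 genes rose and none fell at a false discovery rate under 0.05. By edgeR's quasi-likelihood fit 40.5% of the 12689 genes passed, 19.1% as higher and 21.4% as lower. The 8 were Pparg, Fabp4, Fabp5, Plin2, Hilpda, Angptl4, Pnpla2 and Mgll, with rises of between 1.56-fold (Pnpla2) and 4.74-fold (Fabp4). Fabp3 and Lpl did not pass. The median log2 fold change was 1.202 for the 10 genes and 0.0061 for all genes tested. The 10 genes were chosen with earlier results of these data known, so these shares and medians are a description and not a test. In 7 of them (all of the 8 but Mgll) every oxLDL library was above every untreated library, as for 24.5% of all genes, and in Lpl every oxLDL library was below, as for 23.3%.

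**Figure D1:**
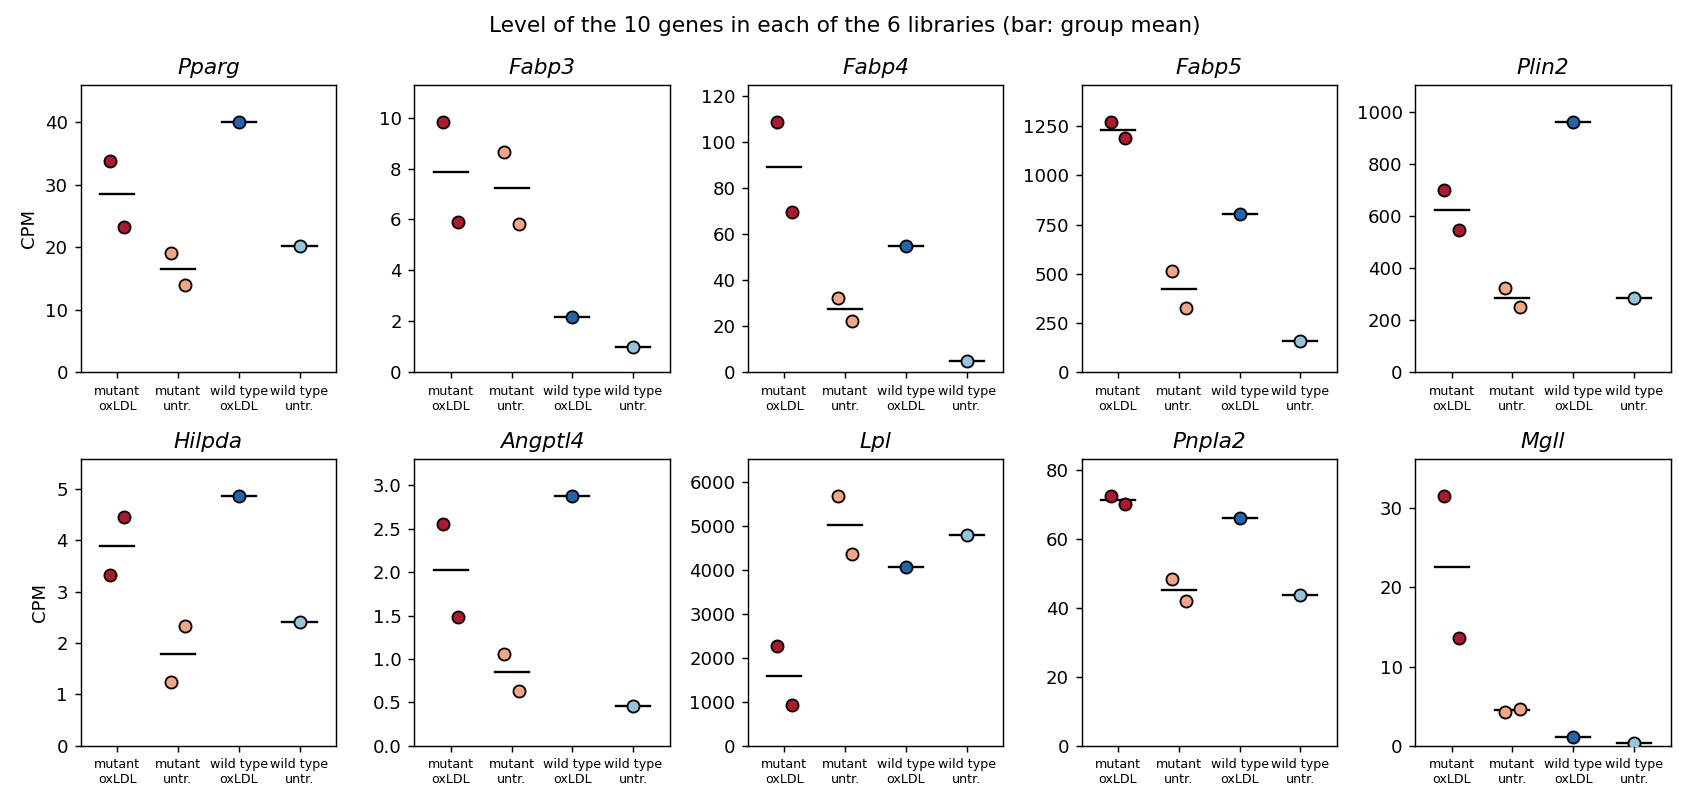
Level in CPM (vertical axis, from 0) of each of the 10 genes in each library, with groups along the horizontal axis, 1 point per library and a bar at the group mean. Fabp4 and Fabp5 are higher with oxLDL. Within each treatment both also lie higher in the mutant, a difference that passed with edgeR in untreated cells only. Lpl is low in the mutant oxLDL libraries alone, and Mgll is high in the mutant.

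Pparg, the receptor itself, measured 33.7 and 23.3 CPM in oxLDL-treated mutant and 19.1 and 13.9 CPM in untreated mutant libraries. In wild type it measured 40.0 CPM with oxLDL and 20.3 CPM without. The 3 oxLDL libraries lay above the 3 untreated ones, and the rise was 1.81-fold (log2 fold change 0.86 ± 0.19 SE, adjusted p = 0.0116). From low to high the group levels ran from mutant untreated through wild type untreated and mutant oxLDL to wild type oxLDL. Between genotypes neither the first 2 of these nor the last 2 passed with edgeR (adjusted p = 0.548 untreated and 0.472 with oxLDL). Each of these tests set 2 mutant libraries against 1 of wild type and could miss a difference. The middle 2, at 20.3 CPM in wild type untreated and 28.5 ± 7.40 CPM in mutant oxLDL cells, differ in both factors and were not compared. Counts per gene do not separate the transcripts from the 3 annotated Pparg starts. The 5 genes closest to Pparg in their pattern over the 6 libraries were Swt1, Cul1, Rbm45, Zfp260 and Nipa2, with Pearson r of 0.989 to 0.995 in log2 CPM among 8513 genes of at least 10 CPM. With 6 libraries that share treatment and genotype, 273 genes had r over 0.9. Cul1, a scaffold of ubiquitin ligases, measured 145 and 129 CPM in oxLDL-treated mutant, 121 and 114 CPM in mutant untreated, 152 CPM in wild type oxLDL and 126 CPM in wild type untreated cells.

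Of the fatty acid-binding genes Fabp4 and Fabp5 rose and Fabp3 did not pass. Fabp4, the adipocyte and macrophage form, measured 109 and 69.4 CPM in oxLDL-treated mutant and 32.4 and 22.4 CPM in untreated mutant libraries. In wild type Fabp4 measured 55.0 CPM with oxLDL and 4.71 CPM without. All 3 oxLDL libraries were above all 3 untreated ones, and the untreated wild-type library was the lowest of the 6. Among the endothelial markers Vwf and Kdr were likewise higher in every oxLDL library, with Vwf at 275 and 224 CPM in oxLDL-treated mutant, 74.5 and 40.0 CPM in mutant untreated, 92.7 CPM in wild type oxLDL and 7.52 CPM in wild type untreated cells. Pecam1 went the other way, at 0.730 and 1.78 CPM in oxLDL-treated mutant, 11.3 and 27.9 CPM in mutant untreated, 2.17 CPM in wild type oxLDL and 52.3 CPM in wild type untreated cells. The Fabp4 rise across genotypes was 4.74-fold (log2 fold change 2.25 ± 0.41, adjusted p = 0.00589). Fabp5, the epidermal form that macrophages also use, measured 1270 and 1193 CPM in oxLDL-treated mutant and 512 and 328 CPM in untreated mutant libraries. Wild-type cells had 803 CPM of Fabp5 with oxLDL and 158 CPM without. The order of the groups was that of Fabp4, and the rise was 3.52-fold (log2 fold change 1.82 ± 0.23, adjusted p = 0.00165). Over the 6 libraries Fabp4 and Fabp5 had the highest correlation of any 2 of the 10 genes, with Pearson r of 0.979 in log2 CPM, given as a description. Fabp3, the heart form, did not follow them. It measured 9.81 and 5.89 CPM in mutant oxLDL against 8.65 and 5.80 CPM in mutant untreated libraries, and 2.17 CPM with oxLDL against 0.972 CPM without in wild type. Its groups overlapped by treatment, and it did not pass (log2 fold change 0.39 ± 0.33, adjusted p = 0.390).

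Per kilobase of the longest coding transcript of GENCODE M21, Fabp5 was the most abundant of these 3, at 1287 and 1209 CPM per kilobase in mutant oxLDL, 519 and 332 in mutant untreated, 814 in wild type oxLDL and 159.8 in wild type untreated libraries. On the same scale Fabp4 lay between 5.25 and 121 and Fabp3 between 1.18 and 11.9. Fabp4 and Fabp5 lie close together in RefSeq's gene order with Pmp2, Fabp9 and Fabp12, which are further members of the family. Those 3 neighbours had no count in any library. Of Fabp5's 913 stretches of 75 bases 110 also occur in other gene models, and of Fabp3's 24.3% occur in the pseudogene Fabp3-ps1, so both counts depend on how reads were divided and are uncertain to that extent. No stretch of Fabp4 was shared.

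Both lipid droplet genes rose. Plin2 measured 698 and 546 CPM in oxLDL-treated mutant and 323 and 248 CPM in untreated mutant libraries. In wild type it measured 960.0 CPM with oxLDL and 283 CPM without. The treated and untreated libraries did not overlap, the treated wild-type library was the highest, and the rise was 2.52-fold (log2 fold change 1.34 ± 0.19, adjusted p = 0.00239). Hilpda encodes a small droplet protein that inhibits adipose triglyceride lipase. It was expressed at a low level, with 3.33 and 4.46 CPM in oxLDL-treated mutant and 1.24 and 2.34 CPM in untreated mutant libraries, from 82 and 90 counts and 14 and 33 counts. Wild-type cells had 4.86 CPM of Hilpda with oxLDL and 2.40 CPM without. Hilpda rose 2.099-fold (log2 fold change 1.07 ± 0.30, adjusted p = 0.0287).

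The lipase genes split. Lpl encodes lipoprotein lipase, which macrophages secrete and which frees fatty acids from lipoproteins. It measured 2265 and 933 CPM in oxLDL-treated mutant and 5689 and 4363 CPM in untreated mutant libraries. In wild type Lpl measured 4080 CPM with oxLDL and 4798 CPM without. The mutant oxLDL pair was the lowest, its 2 libraries differing from each other by more than 2-fold, while the treated wild-type library lay close to the untreated ones. Across genotypes Lpl did not pass with edgeR (log2 fold change -1.19 ± 0.43, adjusted p = 0.0684), but it did with DESeq2 (adjusted p = 0.0273). Its log2 fold change was -1.65 without wild type oxLDL and -1.66 without wild type untreated. With either of these left out the treatment change rests on the mutant libraries alone, so these values repeat the mutant result. In the mutant alone Lpl fell to 1599 ± 942 CPM with oxLDL, against 5026 ± 938 CPM untreated (SD, n = 2 per group; log2 fold change -1.65 ± 0.42, adjusted p = 0.0288). In wild type its log2 ratio was -0.23, and the difference between genotypes of -1.42 ± 0.72 did not pass (adjusted p = 0.531). Angptl4, a secreted inhibitor of lipoprotein lipase and a well-known PPAR target, measured 2.56 and 1.49 CPM in oxLDL-treated mutant and 1.06 and 0.637 CPM in untreated mutant libraries. In wild type it measured 2.88 CPM with oxLDL and 0.460 CPM without. Angptl4 rose 3.29-fold (log2 fold change 1.72 ± 0.46, adjusted p = 0.0251), on 9 to 63 counts per library.

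Pnpla2 and Mgll, whose enzymes act inside the cell, rose. Pnpla2 encodes adipose triglyceride lipase, which takes the first fatty acid from stored triglyceride. It measured 72.4 and 70.0 CPM in mutant cells with oxLDL and 48.4 and 41.9 CPM in those without, and 66.0 CPM with oxLDL and 43.7 CPM without in wild type. Its rise of 1.56-fold was the smallest that passed (log2 fold change 0.64 ± 0.091, adjusted p = 0.00241). Mgll encodes monoglyceride lipase, which takes off the last fatty acid and also breaks down the endocannabinoid 2-arachidonoylglycerol. It measured 31.5 and 13.6 CPM in oxLDL-treated mutant and 4.32 and 4.67 CPM in untreated mutant libraries. Wild-type cells had 1.09 CPM of Mgll with oxLDL and 0.409 CPM without, from 17 and 8 counts. Treated libraries were higher within each genotype, though the treated wild-type library lay under both untreated mutant ones. Mgll rose 4.56-fold across genotypes (log2 fold change 2.19 ± 0.39, adjusted p = 0.00550).

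The calls of Fabp4, Fabp5, Plin2, Pnpla2 and Mgll were kept in each of the 6 fits that left out 1 library, although without mutant oxLDL replicate 1 the log2 fold change of Mgll was 1.54. Pparg was called in 5 of them, with an adjusted p of 0.0555 without mutant untreated replicate 2, Angptl4 in 2 and Hilpda in 1. Over these fits the highest adjusted p was 0.0994 for Angptl4 (wild type oxLDL left out) and 0.0848 for Hilpda (mutant oxLDL replicate 2 left out).

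**Figure D2:**
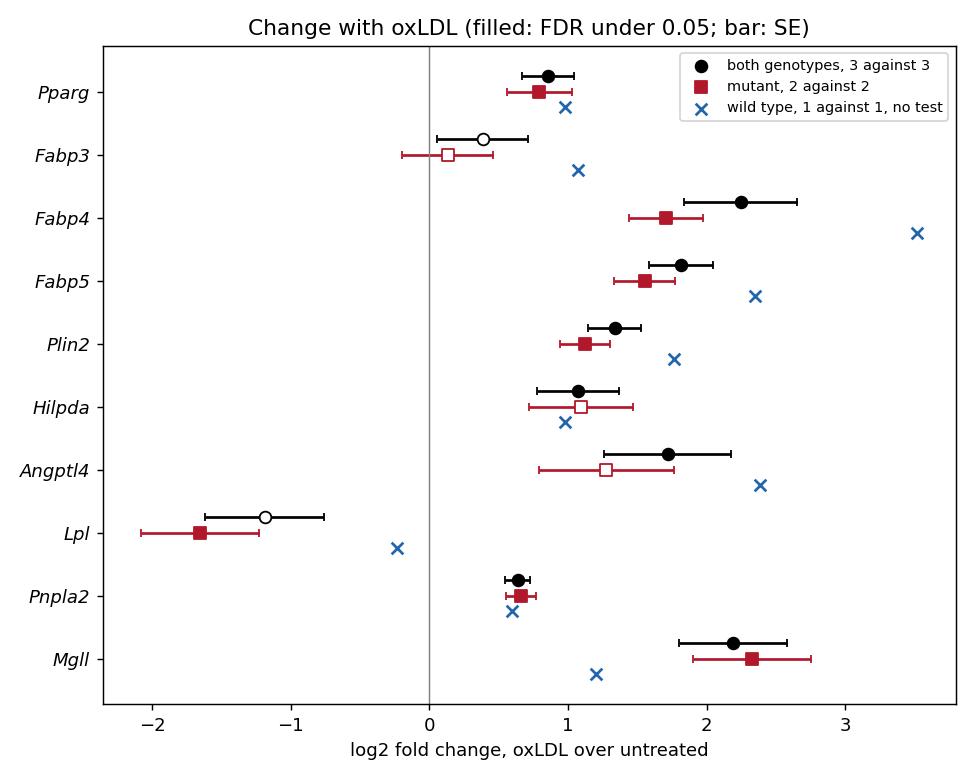
Log2 fold change of oxLDL over untreated cells (horizontal axis) for each gene, from the fit over both genotypes, from the mutant pairs, and as the ratio of the single wild-type libraries. Bars are SE and filled symbols passed a false discovery rate of 0.05. Lpl is the gene to the left of 0, and Fabp4 and Fabp5 lie further right in wild type than in the mutant.

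Within the mutant alone, 2 oxLDL against 2 untreated libraries, 6 of the 10 genes rose and 1 fell (Lpl), where 35.6% of all genes passed, 16.5% as higher and 19.1% as lower. Fabp4 averaged 89.0 ± 27.7 CPM with oxLDL and 27.4 ± 7.09 CPM untreated (log2 fold change 1.71 ± 0.27, adjusted p = 0.00565). Mgll averaged 22.6 ± 12.7 CPM with oxLDL and 4.50 ± 0.245 CPM untreated (SD, n = 2 per group; log2 fold change 2.33 ± 0.43, adjusted p = 0.00931). Fabp5, Plin2, Pnpla2 and Pparg rose 2.93-fold, 2.18-fold, 1.58-fold and 1.73-fold. Hilpda and Angptl4 had log2 fold changes of 1.09 ± 0.37 (adjusted p = 0.0685) and 1.28 ± 0.49 (adjusted p = 0.0919). Without mutant untreated replicate 1 or 2 the calls of Pparg, Mgll and Lpl ended, with adjusted p of 0.0513 to 0.0527 for Mgll, 0.0517 and 0.198 for Pparg, and 0.109 and 0.0666 for Lpl. The Pparg call also ended with limma-voom (adjusted p = 0.0528) and without mutant oxLDL replicate 1 (adjusted p = 0.0970). Without that library the log2 fold changes of Lpl and Mgll were -2.43 and 1.59.

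In wild type 1 library stood against 1, so there is no test. By size, from at least 5 CPM in either library and a 2-fold difference, Fabp4, Fabp5 and Plin2 were higher with oxLDL, as were 7.92% of 9840 genes. None of the 10 was lower by that measure, against 11.7% of genes. The log2 ratio was 3.51 for Fabp4, 2.35 for Fabp5 and 1.76 for Plin2, and 0.98 for Pparg and 0.59 for Pnpla2, which stayed under 2-fold. Exact binomial 95% intervals of those ratios, which cover counting error only, ran from 3.23 to 3.87 for Fabp4 and from 0.80 to 1.17 for Pparg. Fabp3, Hilpda, Angptl4 and Mgll were under 5 CPM in both libraries.

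The second question was whether the mutant differed from wild type. Across both treatments, Fabp3 and Mgll were higher in the 4 mutant than in the 2 wild-type libraries and none of the 10 genes was lower, where 4.05% of all genes passed, 2.54% as higher and 1.51% as lower. Mgll measured 31.5, 13.6, 4.32 and 4.67 CPM in the mutant libraries against 1.09 and 0.409 CPM in the wild-type ones. It was 16.4-fold higher (log2 fold change 4.04 ± 0.51, adjusted p = 0.0219). Fabp3 measured 9.81, 5.89, 8.65 and 5.80 CPM in the mutant libraries and 2.17 and 0.972 CPM in the wild-type ones. It was 4.96-fold higher (log2 fold change 2.31 ± 0.39, adjusted p = 0.0380). In these 2 genes every mutant library was above every wild-type one, as for 8.49% of all genes, and in none of the 10 was every mutant library below, as for 7.78%. Of 9 dendritic cell markers 3 were tested, and Itgax alone passed. Itgax, which encodes CD11c and is also found on macrophages, measured 44.5, 58.7, 42.5 and 46.6 CPM in the mutant libraries against 13.7 and 6.14 CPM in the wild-type ones and made up most of the summed level. The other tested markers, Xcr1 and Batf3, averaged 2.84 and 0.611 CPM in the mutant against 3.28 and 1.62 CPM in wild type, and the part of these markers in the results was not tested. Fabp4 (1.43 ± 0.44, adjusted p = 0.120) and Fabp5 (0.99 ± 0.25, adjusted p = 0.0783) did not pass in this fit. With library size alone as the scale, the share of called genes that were higher in the mutant was 78.3%, against 62.6% with TMM factors, and with upper quartile factors it was 72.6%. Both calls ended without mutant untreated replicate 1 (adjusted p = 0.0615 for Mgll and 0.0878 for Fabp3), without mutant untreated replicate 2 (0.106 and 0.128) and without wild type untreated (0.0747 and 0.167). The Fabp3 call also ended without mutant oxLDL replicate 1 (0.0824) and that of Mgll without wild type oxLDL (0.0600, log2 fold change 3.44).

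**Figure D3:**
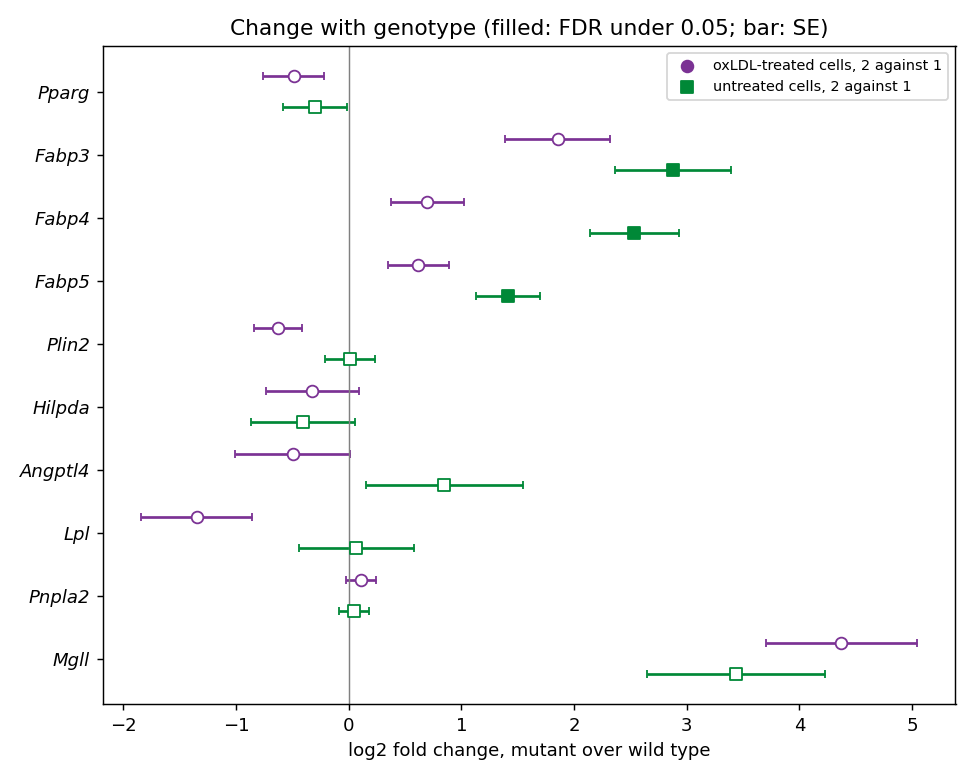
Log2 fold change of mutant over wild-type cells (horizontal axis) for each gene, separately in oxLDL-treated and in untreated cells, each from 2 mutant libraries against 1 of wild type. Bars are SE and filled symbols passed a false discovery rate of 0.05. Fabp3, Fabp4 and Fabp5 pass in untreated cells, and Mgll lies furthest right in both.

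In untreated cells all 3 fatty acid-binding genes were higher in the mutant, where 7.06% of all genes passed, 4.24% as higher and 2.82% as lower. Fabp3 averaged 7.22 ± 2.01 CPM in mutant cells (SD, n = 2), against 0.972 CPM in the wild-type library (log2 fold change 2.88 ± 0.52, adjusted p = 0.0355). Fabp4 averaged 27.4 ± 7.09 CPM in mutant cells, against 4.71 CPM in wild type (log2 fold change 2.53 ± 0.40, adjusted p = 0.0298). Of the 7 endothelial markers tested 3 were higher in the untreated mutant (Vwf, Tie1 and Flt1) and none was lower, and their part in the Fabp4 difference was not tested. Vwf averaged 57.2 ± 24.4 CPM in mutant cells, against 7.52 CPM in wild type, while Pecam1 averaged 19.6 ± 11.7 CPM in mutant cells, against 52.3 CPM in wild type, and did not pass (adjusted p = 0.157). Fabp5 averaged 420 ± 130 CPM in mutant cells, against 158 CPM in wild type (log2 fold change 1.41 ± 0.28, adjusted p = 0.0438). Mgll did not pass (log2 fold change 3.44 ± 0.79, adjusted p = 0.0578). Pparg, Plin2, Hilpda, Angptl4, Lpl and Pnpla2 did not pass either, with log2 fold changes between -0.41 and 0.85. The calls rest on 1 wild-type library, which is assumed to vary like the mutant pairs and which also held the pancreatic and neutrophil transcripts. In simulated data this comparison recovered 49.5% of 100 log2 changes of 1 and 81% of 100 changes of 2. It also called 25 genes that had not been changed. Without mutant untreated replicate 1 none of the 3 was called (adjusted p = 0.105 for Fabp3, 0.0907 for Fabp4 and 0.0808 for Fabp5), and without replicate 2 Fabp3 was not (0.0570).

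In oxLDL-treated cells no member passed between mutant and wild type with edgeR, where 0.481% of all genes did. Among the members 4 had an unadjusted p under 0.05, DESeq2 called 1 (Mgll) and limma-voom none. Mgll averaged 22.6 ± 12.7 CPM in mutant cells (SD, n = 2) and 1.09 CPM in wild type (log2 fold change 4.37 ± 0.67, adjusted p = 0.0772). Fabp4 and Fabp5 had log2 fold changes of 0.70 ± 0.32 (adjusted p = 0.393) and 0.62 ± 0.27 (adjusted p = 0.371). Plin2 lay at 622 ± 108 CPM in mutant cells and 960.0 CPM in wild type (log2 fold change -0.63 ± 0.21, adjusted p = 0.279), and Lpl had -1.35 ± 0.49 (adjusted p = 0.297). Without mutant oxLDL replicate 1 the log2 fold change was -2.13 for Lpl and 3.64 for Mgll. Without replicate 2 it was 4.86 for Mgll and 2.18 for Fabp3. These fits set 1 library against 1 and take their spread from the mutant untreated pair, so only the sizes are given.

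Whether the change with oxLDL itself differed between genotypes was tested as an interaction. No member passed with edgeR, where 0.489% of all genes did, 1 had an unadjusted p under 0.05, and DESeq2 called 1 and limma-voom none, the gene being Fabp4 in both counts of 1. Fabp4 rose by 1.71 on the log2 scale in the mutant and had a log2 ratio of 3.51 in wild type, a difference of -1.84 ± 0.49 (adjusted p = 0.281). For Fabp5 the difference was -0.80 ± 0.37 (adjusted p = 0.504) and for Plin2 -0.64 ± 0.31 (adjusted p = 0.517). In simulated data this test with all 6 libraries recovered 10.2% of true log2 changes of 1 and 77.3% of those of 2. A member that did not pass may therefore still differ. The same simulated test also called 27 genes that had not been changed. Without mutant oxLDL replicate 1 the interaction was -2.20 for Fabp4 and -2.20 for Lpl. The spread in that fit comes from the mutant untreated pair alone, so only the sizes are given.

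Other genes of the pathway went both ways with oxLDL. Of 15 tested genes of PPAR receptors, partners and coregulators, 3 rose, 4 fell and 8 did not pass (median log2 fold change -0.066). Ppard, the gene of the sister receptor PPAR delta, rose 2.46-fold and measured 49.0 and 42.3 CPM in oxLDL-treated mutant, 20.1 and 14.0 CPM in mutant untreated, 37.3 CPM in wild type oxLDL and 18.0 CPM in wild type untreated cells. Cebpa, a factor that works with PPAR gamma in fat cells, rose 2.68-fold (log2 fold change 1.42 ± 0.20, adjusted p = 0.00243). Cebpd, another factor of that family, fell 7.31-fold. Of 23 other PPAR target genes 9 rose, 3 fell and 11 did not pass (median 0.26). The malic enzyme gene Me1, the carnitine transferase gene Cpt1a and the acyl-CoA thioesterase gene Acot2 rose 2.44-fold, 2.55-fold and 2.48-fold. Me1 and Acot2 share 17.6% and 21.2% of their 75-base stretches with other genes and are uncertain. Of the other fatty acid-binding genes 2 were tested, and Dbi, which encodes an acyl-CoA-binding protein, fell 1.34-fold.

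Among 23 other lipid droplet genes 9 rose, 2 fell and 12 did not pass (median 0.38). Plin3, a second perilipin, measured 111 and 122 CPM in oxLDL-treated mutant, 58.1 and 52.4 CPM in mutant untreated, 133 CPM in wild type oxLDL and 57.7 CPM in wild type untreated cells. It rose 2.17-fold (log2 fold change 1.12 ± 0.090, adjusted p = 0.000307). Soat1, which esterifies cholesterol for storage, rose 2.41-fold, Abhd5, the coactivator of adipose triglyceride lipase, 1.65-fold, and Lpin1, a phosphatidate phosphatase gene of triglyceride synthesis, 1.89-fold. Of 21 other lipases and lipoprotein lipase regulators 7 rose, 3 fell and 11 did not pass (median 0.34). Nceh1, a neutral cholesteryl ester hydrolase gene, rose 2.93-fold and the phospholipase gene Ddhd1 2.27-fold. Lipe, the hormone-sensitive lipase gene, fell 2.67-fold and Vldlr, the VLDL receptor gene, 3.73-fold. This list also held Pnlip and Cel, which are pancreatic lipases and followed the pancreatic transcripts, and both passed for the interaction, with Pnlip at 15.9 and 11.9 CPM in oxLDL-treated mutant, 0 counts in mutant untreated and wild type oxLDL, and 20.9 CPM in wild type untreated cells.

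**Figure D4:**
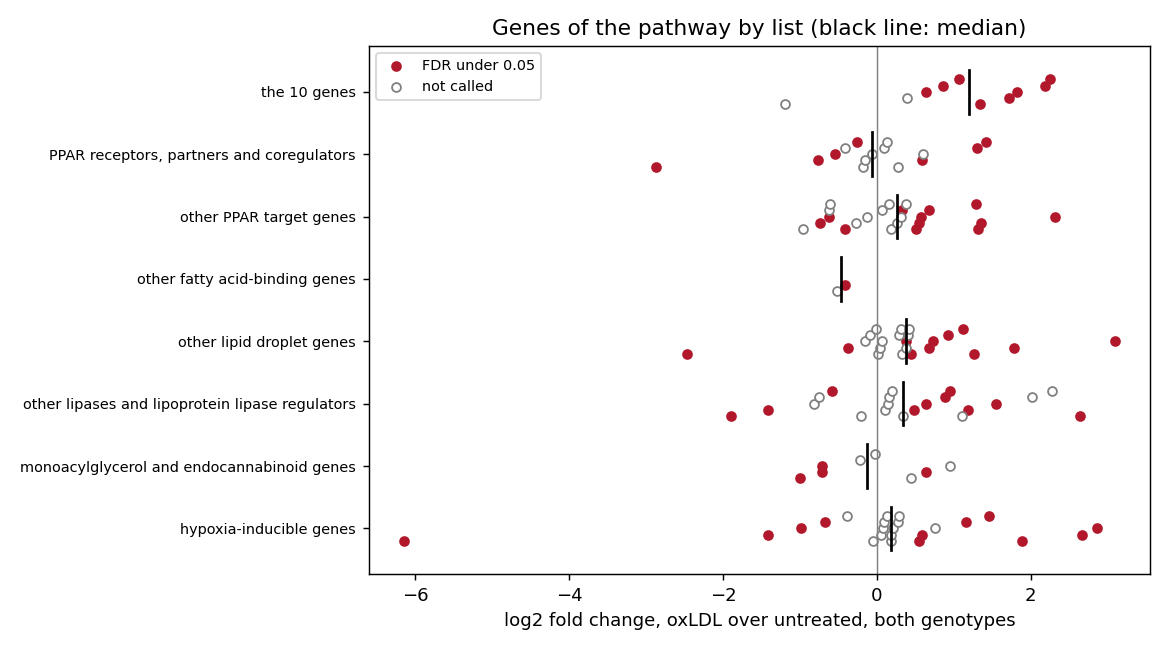
Log2 fold change of oxLDL over untreated cells across genotypes (horizontal axis), 1 point per tested gene, by list. Filled points passed a false discovery rate of 0.05 and the black line is the median, which is 1.202 for the 10 genes and between -0.47 and 0.38 for the other lists.

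Of 8 tested genes that handle monoacylglycerol and endocannabinoids beside Mgll, 1 rose and 3 fell (median -0.13). The monoacylglycerol hydrolase gene Abhd12 fell 1.64-fold, Daglb, which makes 2-arachidonoylglycerol, 1.64-fold and Naaa 2.003-fold, while the cannabinoid receptor gene Cnr2 rose 1.56-fold. Of 23 hypoxia-inducible genes, a group in which Hilpda, Angptl4 and Plin2 are also known, 7 rose, 4 fell and 12 did not pass (median 0.18). Vegfa rose 7.24-fold, P4ha2 6.35-fold, Ero1l 2.74-fold and Mxi1 2.23-fold. Adm, at no more than 3.18 CPM in any library, fell 70.7-fold, Ndrg1 fell 2.66-fold and Car9 1.99-fold. Pfkfb4 also fell (log2 fold change -0.67), and Slc2a1, Ldha and Pdk1 were among those that did not pass. These lists were scored against a background in which 19.1% of all genes rose and 21.4% fell. By genotype across treatments 2.54% of all genes were higher in the mutant and 1.51% lower. Of 15 receptor, partner and coregulator genes 2 were lower. Of 21 other lipases and regulators 1 was higher, as was 1 of 23 hypoxia-inducible genes. Of 8 monoacylglycerol and endocannabinoid genes 1 was higher and 1 lower. None of the other PPAR target, fatty acid-binding or lipid droplet genes passed. Across treatments Ddhd1 was 1.958-fold higher and Naaa 1.81-fold higher in the mutant, and Abhd12 and the coactivator gene Ncoa3 were lower by 1.36-fold and 1.47-fold. Epas1, the gene of hypoxia-inducible factor 2 alpha, was 10.9-fold higher in the mutant (log2 fold change 3.44 ± 0.55, adjusted p = 0.0344).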

How the data were processed

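For each of 6 libraries the deposited table gives expected counts from RSEM, which can be fractions since reads are shared out between genes. The authors also deposited a TMM-scaled signal per gene. The submitters' processing notes name Bowtie2 2.1.0, RSEM 1.2.15 and edgeR, and the build hg19, although the gene symbols are those of mouse. Within a tolerance of 1e-06 the deposited signal steps in whole reads for 100% of values, and 99.892% to 99.958% of genes per library match the rounded counts.

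Expected counts were rounded. After edgeR's filterByExpr, 12689 of the 17143 genes that had counts remained. They entered edgeR's quasi-likelihood test (edgeR 4.0.16, R 4.3.3) with TMM factors and Benjamini-Hochberg adjustment over all genes tested. Pooled comparisons came from a fit with genotype and treatment as separate terms, the others and the interaction from a fit of 4 group means. There the lone wild-type library of a group borrows its spread from the mutant pairs. SE is the size of the log2 fold change divided by the square root of F. Wild-type ratios use a prior count of 2. DESeq2 1.42.0 and limma-voom (limma 3.58.1) were alternatives. The fits were tested on simulated data in which 100 genes changed by 1 and 100 by 2 on the log2 scale. That is far fewer than the genes called for oxLDL here, so the rates need not hold for these data. True log2 changes of 1 were recovered at 72.7% for oxLDL across genotypes and 66% for oxLDL in the mutant. By genotype the share was 75.5% across treatments, 49.5% in untreated and 44.4% in oxLDL-treated cells, and for the interaction 10.2%. For log2 changes of 2 the shares in that order were 93.9%, 85.9%, 90.7%, 81%, 83% and 77.3%. Genes called although unchanged numbered 19, 23, 9, 25, 8 and 27 in the same order. Replicates differed by more than counting noise. The 10 genes and the lists were chosen with earlier results of these data known. Named genes of each list are up to 4 with the smallest p among those that passed for oxLDL across genotypes. Others named (Epas1, Ncoa3, Pnlip, Cel, Adm, Ndrg1, Car9 and Pfkfb4, and Ddhd1, Naaa and Abhd12 by genotype) were chosen after their values were seen. Some genes that the rule names are not reported here. Of the listed genes 6 were found under another symbol, and Ces3 and Ly6g were not analysed here.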

Additional observations from a re-analysis of the deposited data

Results flagged for a closer look

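The change with oxLDL differed between genotypes in the test of the interaction for Pnlip and Amy2a5, pancreatic enzyme genes outside the 10. Pnlip, pancreatic lipase, measured 15.9 and 11.9 CPM in the treated mutant pair and 20.9 CPM in untreated wild-type cells, and had no count in mutant untreated or wild type oxLDL libraries (interaction adjusted p = 0.0140, edgeR). Amy2a5, a pancreatic amylase gene, measured 92.3 and 73.2 CPM in the treated mutant pair and 123 CPM in untreated wild-type cells, and likewise had no count in the other 3 libraries (interaction adjusted p = 0.00432, edgeR). Of its 75-base stretches 51.2% also occur in other genes. They stand for a wider set: of 20 tested genes of pancreatic enzymes and islet hormones 17 passed, Cel among them, with 7.91 and 6.54 CPM in the treated mutant pair, 10.9 CPM in untreated wild-type cells and no count in the other 3 libraries. These are not known macrophage products, and where the transcripts came from was not tested, so the p-values describe which libraries hold them. With those 3 libraries left out, treatment cannot be told apart from genotype.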

How the results depend on the processing

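For oxLDL across genotypes 8 of the 10 genes and 5134 of all genes passed. Alternatives on the full set of libraries gave 8 or 9 members. Leaving out 1 library gave 6 to 7 members and 3480 to 4529 genes. For oxLDL in the mutant, 7 members and 4515 genes passed. limma-voom called 6 members (without Pparg), no filter on low counts 9 (with Hilpda and Angptl4), and leaving out 1 library gave 4 to 7 members and 2626 to 4529 genes. For mutant against wild type across treatments, 2 members and 514 genes passed. DESeq2 called 4 and 1513, no filter on low counts 4 and 1387, limma-voom 0 members, and leaving out 1 library 0 to 3 members and 8 to 877 genes. In untreated cells 3 members and 896 genes passed, against 1 member with limma-voom, 2435 genes with no filter, and 0 to 4 members and 80 to 1822 genes without 1 library. In oxLDL-treated cells 0 members and 61 genes passed, against 1 and 391 with DESeq2, 5 and 974 with no filter, 11 genes with limma-voom, and 0 to 2 members and 5 to 473 genes without 1 library. For the interaction 0 members and 62 genes passed, against 1 and 221 with DESeq2, 1 and 546 with no filter, and 0 to 2 members and 19 to 246 genes without 1 library. Without a wild-type library the oxLDL fit across genotypes rested on the mutant libraries alone. In the fits of group means, leaving out a mutant library left 1 pair to give the spread. The causes of these changes were not tested.

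Members that did not pass could change sign. Across treatments the genotype change of Angptl4 was -0.00038, against 0.034 with DESeq2, 0.077 with library size only, 0.042 with upper quartile factors and -0.49 to 0.85 without 1 library. Without 1 library that of Plin2 ran from -0.62 to 0.011 and that of Lpl from -1.34 to 0.065. In untreated cells Plin2 ran from -0.20 to 0.19, Lpl from -0.15 to 0.24 and Pnpla2 from -0.076 to 0.14. The oxLDL change of Fabp3 in the mutant ran from -0.29 to 0.46. The interaction of Hilpda was -0.017 and that of Pnpla2 -0.029 with library size only, and without 1 library they ran from -0.26 to 0.65 and from -0.024 to 0.19, and that of Pparg from -0.48 to 0.073. Library size only moved the median of all genes by 0.14 on the log2 scale in the untreated comparison, where it gave 79.8% of calls as higher in the mutant against 60% with TMM factors. For the interaction DESeq2 gave 28.1% of calls as higher, against 38.7%.

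With the replicate number as a block, 8 members and 4765 genes passed for oxLDL across genotypes, 8 and 4915 for oxLDL in the mutant (Hilpda 1.13, adjusted p = 0.0321), and 2 and 344 by genotype across treatments, where Angptl4 stood at 0.34. Numbers are shared by 2 mutant pairs and 1 wild-type pair. The mutant pairs' deviations correlated with r = 0.204 over 12689 genes. The wild-type libraries, each alone in its group, have no deviation to compare, so a pairing is not established, and the block changed no other member's call. Reads recovered from the deposited TMM signal, an alternative chosen after seeing the data, gave the same number of members called in all 6 comparisons and 5134, 4515, 512, 896, 61 and 62 genes called, in the order used above. Depth limits Angptl4, Hilpda and Mgll most, with as few as 8 to 14 counts in their lowest library.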
